A study of Mus musculus with 9 samples.

Results

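The collagen chain genes were examined in neutrophils sorted from the skin lesions of mice and from the skin around them. A gene was counted as a collagen chain gene when its name on the array was exactly Col, digits, a, digits, and 43 of the 34797 named genes met this rule. The choice used names only and no measured value. The values are log2 levels from the table that the authors deposited, with the median taken over the 68 probes of these genes wherever a gene had more than 1 probe.

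FVB/N mice received the carcinogen DMBA at the ages of 6 and 13 weeks and repeated PMA, a tumor promoter, from week 1 until week 18 to 20. Gr-1bright neutrophils were sorted from skin adjacent to papillomas (papilloma skin, 2 arrays), skin adjacent to tumors (tumor skin, 2 arrays), papillomas (3 arrays) and tumors (2 arrays), and the labels state a purity above 98%. All groups share strain, carcinogen and promoter, and none was left untreated. Each array held RNA of a pool of several mice, so the spread is that between pools, and lesions were dissociated with collagenase, dispase and DNase while skin was dissociated with collagenase alone, so that lesion and dissociation cannot be told apart.

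Collagens are built from 3 alpha chains wound around each other, and the helical part of each chain is a run of Gly-X-Y triplets, since no side chain larger than that of glycine fits inside. Fibrillar collagens form the tension-bearing fibers of the dermis, type IV collagen forms the sheet of basement membranes under epithelia and around vessels, and the other classes coat fibrils, link sheets to fibers or span cell membranes. In skin they are known as products of fibroblasts, of the pericytes and endothelial cells of vessels, and of keratinocytes, rather than of neutrophils, which are known for releasing collagen-cleaving enzymes.

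The glycine repeat can be read directly on the array. In 3 of the 68 probes at least 5 codons in a row, spaced 3 codons apart, began with GG, the start of all glycine codons. They are shown because they are the part of a collagen message that defines the family, with the glycine codons in capitals. The coordinates are those of the files, in build mm9, at chr4:47283786-47283845 for Col15a1, chr4:129756457-129756516 for Col16a1 and chr3:130270497-130270556 for Col25a1, all on the plus strand.
Col15a1: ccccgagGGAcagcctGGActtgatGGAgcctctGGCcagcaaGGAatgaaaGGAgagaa
Col16a1: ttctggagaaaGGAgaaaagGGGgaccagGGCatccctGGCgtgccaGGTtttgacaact
Col25a1: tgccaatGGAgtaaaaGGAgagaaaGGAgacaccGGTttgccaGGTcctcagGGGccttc

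The arrays differed in ways that touch the results. On 6 arrays the spike-in RNAs followed their known amounts with a full slope, whereas papilloma skin 1, tumor skin 1 and tumor 1 were compressed, and on these 3 arrays 90.7% to 95.0% of probes read as well above background against 44.2% to 64.2% on the others. The columns papilloma skin 1 and tumor 1 of the value table did not follow their own scanner file (Spearman's rho across probes of 0.584 and 0.825) and were closest to the file of tumor 2 (0.923 and 0.946), while the other 7 columns had a rho of 0.931 to 0.980 with their own file. The columns papilloma 2 and papilloma 3 were each closest to the other's file, within 1 group. The comparisons of the collagen genes are therefore also given for the 7 columns other than papilloma skin 1 and tumor 1, called matching below. Papilloma 2 and papilloma 3 are among them, and exchanging them would not change their group. In the 7 columns papilloma skin and tumor have 1 array each and are assumed to vary like the other groups.

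Genes were tested with limma, with p-values adjusted by the method of Benjamini and Hochberg over all 34797 genes. A call needed an adjusted p no higher than 0.05, a log2 difference no smaller than 1 in size and a mean level over the 9 arrays that reached 6 on the log2 scale. In papilloma neutrophils 10 of the 43 collagen genes were called higher than in papilloma skin and 0 lower, against 2.43% of all genes called higher. The 10 genes encode chains of type IV collagen (Col4a1, Col4a2), type V collagen (Col5a1, Col5a2, Col5a3), type VI collagen (Col6a1, Col6a2), type VII collagen (Col7a1), type XII collagen (Col12a1) and type XVIII collagen (Col18a1). In tumors 7 genes were called higher than in tumor skin and 0 lower, against 2.75% of all genes called higher, and in tumors compared with papillomas 9 genes were called lower and 0 higher, against 0.46% of all genes called lower. The 43 genes had a median log2 difference of 0.58 in papilloma versus papilloma skin, 0.15 in tumor versus tumor skin and -0.29 in tumor versus papilloma, beside -0.01 for all genes in each of the 3 comparisons.

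**Figure D1:**
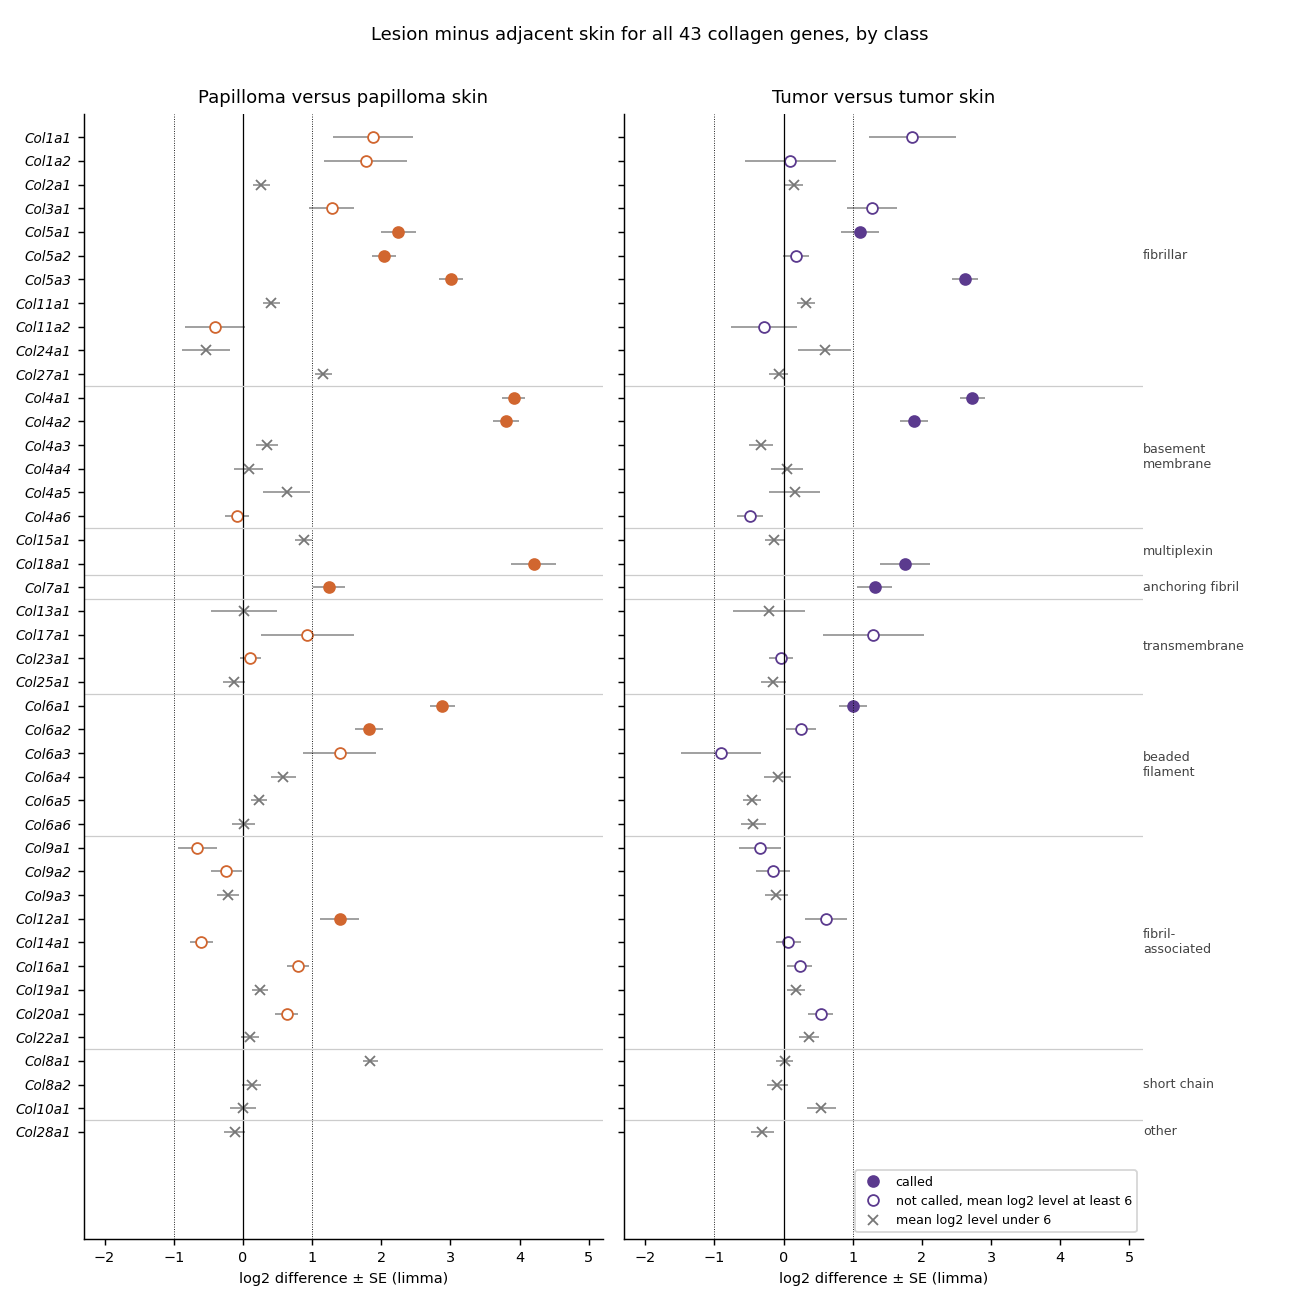
Log2 difference with its SE (limma) between lesion and adjacent skin for all 43 collagen genes, ordered by class, for papilloma (left) and tumor (right). Filled points are called genes, open points reached the mean log2 level of 6 and were not called, crosses are genes below that level, and dotted lines mark log2 differences of -1 and 1. The called genes lie to the right of 1 in both panels, 10 on the left and 7 on the right.

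The type IV chains differed by more than any other pair of chains of 1 protein between papilloma and papilloma skin. Col4a1 encodes the alpha1 chain of the basement membrane sheet, and its log2 level was 7.21 and 7.30 in papilloma skin, 6.06 and 6.34 in tumor skin, 11.29, 10.99 and 11.22 in papillomas, and 8.73 and 9.12 in tumors. Col4a2 encodes the alpha2 chain that joins with alpha1 in the same molecule, and it stood at 7.54 and 7.66 in papilloma skin, 7.52 and 7.04 in tumor skin, 11.21, 11.38 and 11.61 in papillomas, and 9.08 and 9.25 in tumors. For both genes every papilloma array lay above every tumor array, and both tumor arrays lay above all 4 skin arrays.

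Between papilloma and papilloma skin Col4a1 rose 15.1-fold (log2 difference 3.91, SE 0.17, limma adjusted p = 9.15e-05) and Col4a2 14.0-fold (3.80, SE 0.18, adjusted p = 9.2e-05). Between tumor and tumor skin Col4a2 rose 3.70-fold (1.89, SE 0.20, adjusted p = 0.00219). Col4a1 was called there with a log2 difference of 2.73 (SE 0.19, adjusted p = 0.000506), but in tumor skin it was well above background on 1 of 2 arrays only, the compressed one, so no fold is given. Col4a1 was read by a single probe that is spotted 10 times on the array. The remaining chains of type IV, which make up the sheets of the kidney, lung and some other epithelia, were Col4a3, Col4a4, Col4a5 and Col4a6. They had mean log2 levels of 5.05 to 6.50 and log2 differences of -0.08 to 0.64 in papilloma versus papilloma skin, and none was called.

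Col4a1 and Col4a2 are neighbors that are transcribed away from each other. In the RefSeq promoter table for build GRCm38.p6 their starts lie 21 bases apart on chromosome 8, at position 11312826 on the minus strand and 11312805 on the plus strand, so that the first bases of both transcripts overlap. Col4a5 and Col4a6 are arranged in the same way on chromosome X with starts 1343 bases apart, and neither was called in any comparison.

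Type XVIII collagen belongs to the multiplexins, which sit at basement membranes and carry long sugar chains, and its C-terminal fragment is known as endostatin. In the value table Col18a1 showed the highest fold of the 43 genes between papilloma and papilloma skin, whereas from the scanner files with quantile normalization and ComBat Col4a1, at a log2 difference of 5.48, was above it. Its log2 level was 7.53 and 7.70 in papilloma skin, 6.80 and 7.57 in tumor skin, 12.18, 11.71 and 11.56 in papillomas, and 8.49 and 9.41 in tumors. The papilloma arrays did not overlap with any other group, and both tumor arrays lay above all skin arrays. It rose 18.4-fold in papilloma versus papilloma skin (log2 difference 4.20, SE 0.33, limma adjusted p = 0.000436) and 3.39-fold in tumor versus tumor skin (1.76, SE 0.36, adjusted p = 0.0226). Its 2 probes gave log2 differences of 4.22 and 4.18 in the former comparison. Col15a1, the other multiplexin, had a mean log2 level of 5.86 and was not well above background on papilloma skin 2 and tumor skin 2. Its papilloma arrays at 6.33, 6.40 and 6.55 were above all other arrays, which ranged from 5.51 to 5.73, and it was not called.

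Col7a1 encodes type VII collagen, the anchoring fibril that ties the epidermal basement membrane to the dermis. Its log2 level was 9.03 and 8.93 in papilloma skin, 8.02 and 8.35 in tumor skin, 10.62, 10.06 and 9.98 in papillomas, and 9.26 and 9.74 in tumors. The groups did not overlap, with papillomas above tumors and tumors above both kinds of skin. It rose 2.37-fold in papilloma versus papilloma skin (limma adjusted p = 0.0176) and 2.49-fold in tumor versus tumor skin (adjusted p = 0.0186), and with the 7 matching columns it was not called in either (adjusted p = 0.0941 and 0.0561). Col17a1, a transmembrane collagen of the keratinocyte hemidesmosome, overlapped between each lesion and its adjacent skin. It stood at 7.60 and 6.56 in papilloma skin, 5.74 and 7.25 in tumor skin, 8.78, 7.57 and 7.69 in papillomas, and 6.89 and 8.70 in tumors, and its log2 differences of 0.93 (SE 0.67) and 1.30 (SE 0.73) against the adjacent skin had limma adjusted p-values of 0.478 and 0.299.

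The bases upstream of the outermost start of Col18a1, Col7a1 and Col6a2 are shown because these called genes have upstream sequence outside any annotated gene. They come from RefSeq in build GRCm38.p6, each 250 bases long and written 5′ to 3′ on the strand of the gene, at chr10:77166531-77166780 (minus), chr9:108953336-108953585 (plus) and chr10:76623631-76623880 (minus). Capitals mark CCAAT and GGGCGG, the letters of the CCAAT box and the GC box, or their reverse complements.
Col18a1: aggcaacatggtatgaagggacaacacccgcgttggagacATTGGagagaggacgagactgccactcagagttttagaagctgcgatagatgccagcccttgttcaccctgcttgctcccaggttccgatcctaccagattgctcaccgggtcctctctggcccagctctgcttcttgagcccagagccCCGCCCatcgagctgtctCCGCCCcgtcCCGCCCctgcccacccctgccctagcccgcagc
Col7a1: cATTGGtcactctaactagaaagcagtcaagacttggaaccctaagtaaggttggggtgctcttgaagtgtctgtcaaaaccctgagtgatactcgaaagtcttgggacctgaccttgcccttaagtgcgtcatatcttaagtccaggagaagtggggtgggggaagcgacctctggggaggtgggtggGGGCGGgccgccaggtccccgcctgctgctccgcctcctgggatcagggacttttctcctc
Col6a2: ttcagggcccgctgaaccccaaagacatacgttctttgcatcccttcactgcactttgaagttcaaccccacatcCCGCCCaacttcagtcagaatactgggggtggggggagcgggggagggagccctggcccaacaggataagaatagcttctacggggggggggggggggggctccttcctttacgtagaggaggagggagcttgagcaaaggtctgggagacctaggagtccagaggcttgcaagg
In windows from 250 bases before to 50 bases after the start, searched on both strands, GGGCGG was found in 8 of the 10 windows of the called genes, which cover 8 of the 10 genes, in 23 of the 38 windows of the 35 collagen genes in the table, and in 35.7% of all 32851 windows. CCAAT was found in 5 of these 10 windows, 13 of the 38 and 37.4% of all, and TATAAA in 0 of 10, 5 of 38 and 13.6%. The windows of Col4a1 and Col4a2 overlap, as do the 2 windows of Col6a2, and a match of letters is not a measured binding site.

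Among the fibrillar collagens the type V chains, which sit inside type I fibrils and regulate their width, were called, and the chains of type I and type III, the main fibers of the dermis, were not called against the adjacent skin with 9 columns. Of the 11 fibrillar genes 3 were called in papilloma versus papilloma skin and 2 in the tumor comparison.

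Col5a3 had log2 levels of 7.63 and 7.58 in papilloma skin, 5.80 and 5.62 in tumor skin, 10.49, 10.42 and 10.93 in papillomas, and 8.34 and 8.34 in tumors. The levels of the 4 groups did not overlap. It rose 8.05-fold in papilloma versus papilloma skin (log2 difference 3.01, SE 0.17, limma adjusted p = 0.000134). The tumor comparison gave a call with a log2 difference of 2.63 (SE 0.19, adjusted p = 0.000579), against a group in which it was well above background on the compressed array and not on tumor skin 2.

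Col5a1, the chain present in nearly all type V molecules, stood at 7.46 and 7.06 in papilloma skin, 6.23 and 6.76 in tumor skin, 9.78, 9.15 and 9.60 in papillomas, and 7.40 and 7.80 in tumors. It was called in both lesions, 4.75-fold higher in papilloma (adjusted p = 0.00212) and 2.16-fold higher in tumor (adjusted p = 0.0424), although the tumor and papilloma skin arrays overlapped. Col5a2 stood at 5.96 and 5.97 in papilloma skin, 5.95 and 6.37 in tumor skin, 8.16, 7.76 and 8.08 in papillomas, and 6.37 and 6.31 in tumors. Its papilloma arrays were above all others and were called against papilloma skin (log2 difference 2.03, adjusted p = 0.000618), while the tumor arrays overlapped with tumor skin (0.18, SE 0.19, adjusted p = 0.594). It was not well above background on papilloma skin 2 and tumor skin 2, so both skin groups read above background on their compressed array alone. On those arrays 95.0% and 90.7% of all probes read so, which does not show that Col5a2 was measured in skin.

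Col1a1 and Col1a2 encode the chains of type I collagen. Col1a1 stood at 11.95 and 10.82 in papilloma skin, 8.998 and 9.20 in tumor skin, 13.57, 13.20 and 13.03 in papillomas, and 9.90 and 12.03 in tumors. Col1a2 stood at 12.93 and 11.69 in papilloma skin, 11.05 and 11.32 in tumor skin, 14.42, 13.91 and 13.93 in papillomas, and 10.19 and 12.37 in tumors. Papillomas were above all other arrays for both genes, and for both the lower tumor array was the column that did not match its file. With 9 columns neither gene was called in papilloma versus papilloma skin (log2 difference 1.88, SE 0.57, limma adjusted p = 0.0970 for Col1a1, and 1.78, SE 0.60, adjusted p = 0.128 for Col1a2). With the 7 matching columns both were called, Col1a1 with a log2 difference of 2.45 (adjusted p = 0.0174) and Col1a2 with 2.40 (adjusted p = 0.0190). In tumor versus tumor skin the log2 difference was 1.86 (adjusted p = 0.100) for Col1a1 and 0.10 (adjusted p = 0.946) for Col1a2, and in tumor versus papilloma -2.31 (adjusted p = 0.127) and -2.80 (adjusted p = 0.0864), none of them called.

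Col3a1, the chain of type III collagen, stood at 11.79 and 10.80 in papilloma skin, 9.48 and 9.44 in tumor skin, 12.72, 12.28 and 12.73 in papillomas, and 10.35 and 11.13 in tumors. Papillomas were above all other arrays and both tumor arrays were above tumor skin. Its log2 difference was 1.28 in both lesion comparisons (SE 0.33 and 0.36, adjusted p = 0.0541 and 0.0590), and with the 7 matching columns it was called in both (1.78, adjusted p = 0.0258, and 1.67, adjusted p = 0.0276). Of the remaining fibrillar genes Col2a1, Col11a1, Col11a2, Col24a1 and Col27a1, known mainly from cartilage and other tissues, Col11a2 alone reached the mean log2 level of 6. Col27a1 passed the p and fold limits in papilloma versus papilloma skin (log2 difference 1.17, adjusted p = 0.00172) at a mean log2 level of 5.80.

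Type VI collagen forms beaded filaments around cells from 1 chain each of alpha1, alpha2 and alpha3. Col6a1 stood at 9.60 and 9.24 in papilloma skin, 8.62 and 8.54 in tumor skin, 12.30, 12.04 and 12.55 in papillomas, and 9.48 and 9.69 in tumors. Papillomas were far above the rest, while tumors overlapped with papilloma skin and were above tumor skin. Col6a1 rose 7.37-fold in papilloma versus papilloma skin (log2 difference 2.88, SE 0.18, limma adjusted p = 0.000196) and 2.01-fold in tumor versus tumor skin (1.01, SE 0.20, adjusted p = 0.0205).

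Col6a2 stood at 6.79 and 6.50 in papilloma skin, 6.33 and 6.49 in tumor skin, 8.53, 8.12 and 8.76 in papillomas, and 6.67 and 6.66 in tumors. The papilloma arrays were above all others, and tumor and skin arrays lay close together. It rose 3.54-fold in papilloma (adjusted p = 0.00178), and its 2 probes differed in size, with log2 differences of 2.55 and 1.10. In tumor versus tumor skin its log2 difference was 0.26 (SE 0.22, adjusted p = 0.493). Col6a3 did not follow the other chains. It stood at 10.77 and 12.45 in papilloma skin, 11.86 and 11.70 in tumor skin, 12.84, 13.16 and 13.03 in papillomas, and 11.63 and 10.12 in tumors, so that papillomas were highest and tumors overlapped with papilloma skin but lay below tumor skin. Neither lesion comparison was called with 9 columns (log2 difference 1.40, adjusted p = 0.169, and -0.91, adjusted p = 0.358), and with the 7 matching columns Col6a3 was called lower in tumor than in tumor skin (-1.66, adjusted p = 0.0200), on the single tumor array left.

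**Figure D2:**
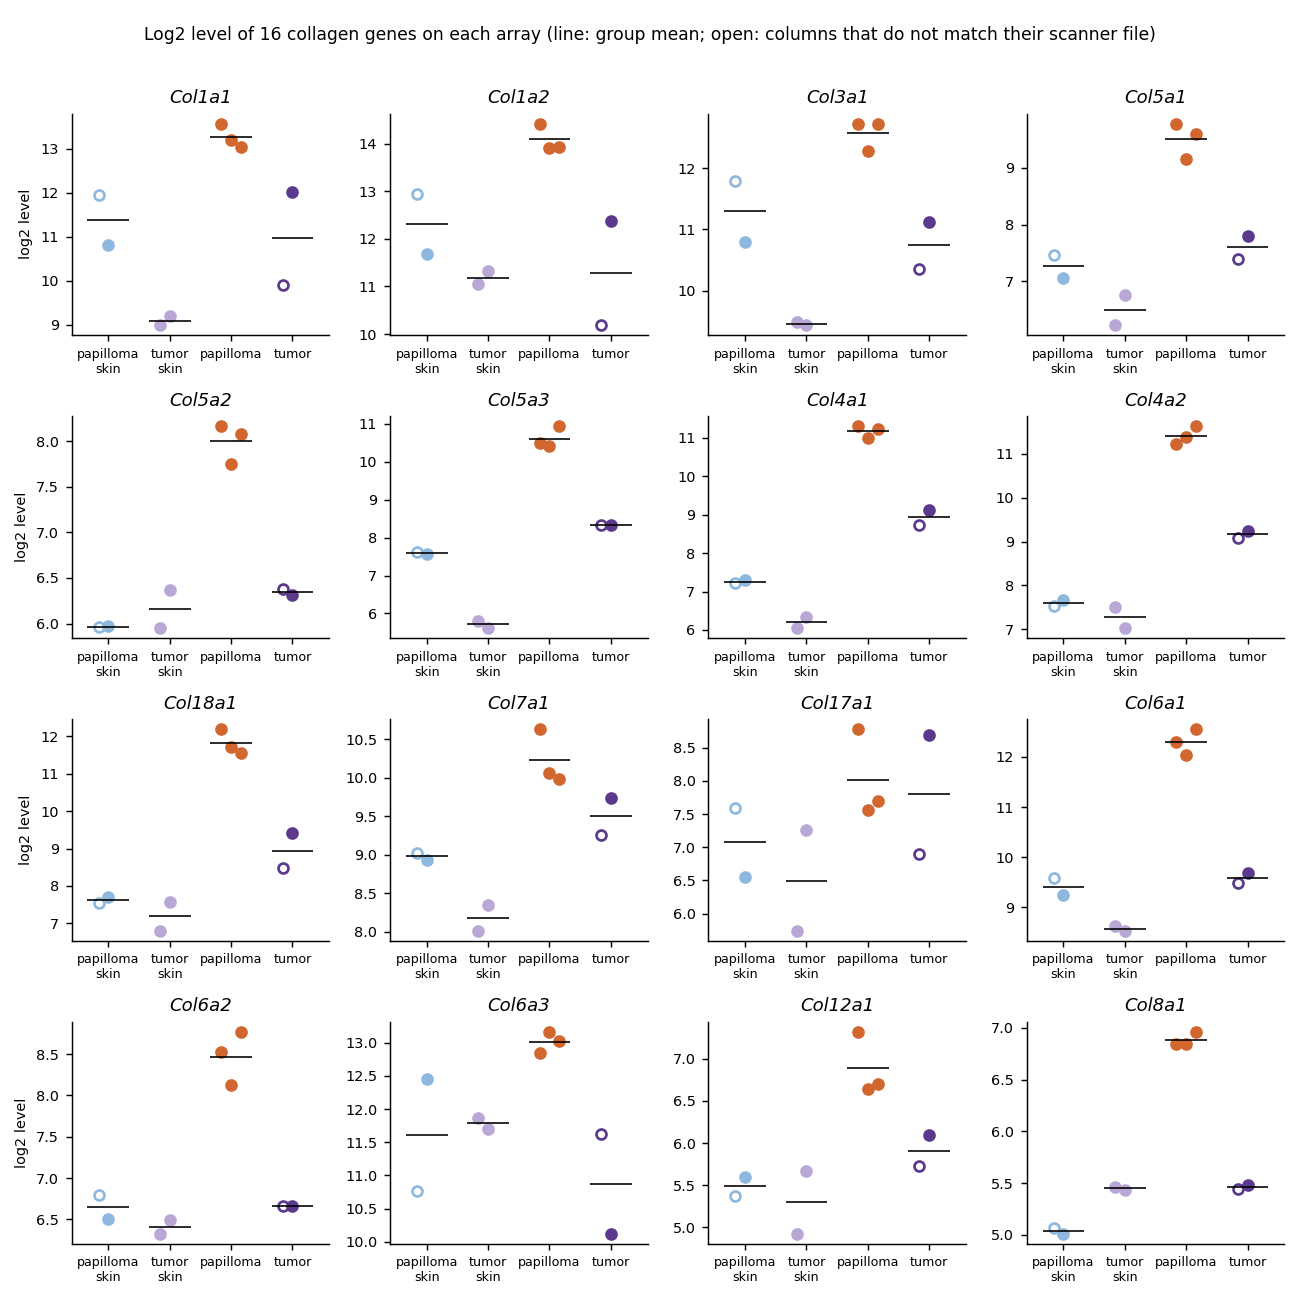
Log2 level of 16 collagen genes on each of the 9 arrays, by group, with a line at the group mean and open points for the columns papilloma skin 1 and tumor 1, which do not match their scanner file. Axes differ between panels and do not start at 0. In 15 of the panels, all but that of Col17a1, the 3 papilloma arrays lie above every other array.

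The fibril-associated collagens, which decorate the surface of fibrils, gave few calls. Of 9 genes 1 was called in papilloma versus papilloma skin, Col12a1 at 5.37 and 5.60 in papilloma skin, 4.93 and 5.67 in tumor skin, 7.31, 6.64 and 6.71 in papillomas, and 5.73 and 6.09 in tumors. Its log2 difference was 1.40 (limma adjusted p = 0.0222). It reached the level minimum with a mean of 6.00 through the papilloma arrays, since the means of the other groups were 5.30 to 5.91, and it was not well above background on papilloma skin 2. The value is a median of 2 probes that disagreed, with log2 differences of 2.49 for the brighter probe and 0.31 for a probe that stayed at background on all 6 full-slope arrays. With the 7 matching columns it was not called (1.28, adjusted p = 0.159). Col16a1 had 4 probes with log2 differences from -0.14 to 1.43, and its median of 0.80 was below the fold limit. Of the fibril-associated genes 4 of 9 were lower in papilloma than in papilloma skin, the lowest being Col9a1 at -0.66 and Col14a1 at -0.60, both not called.

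The other classes added no called gene. The 4 transmembrane genes Col13a1, Col17a1, Col23a1 and Col25a1 and the 3 short chain genes Col8a1, Col8a2 and Col10a1 were not called in any comparison, nor was Col28a1. In all, 20 of the 43 genes had a mean log2 level under 6, between 5.05 and 5.89, and 6 of these stayed at background on all 6 full-slope arrays. A gene can reach the minimum through the papilloma arrays alone, so counts are given over all 43 genes. Every papilloma array lay above every other array for 23 of the 43 genes, against 5.46% of all genes.

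The comparison of tumor with papilloma asks whether the chains differ between the stages. The 9 genes called lower in tumor were Col3a1, Col4a1, Col4a2, Col5a1, Col5a2, Col5a3, Col6a1, Col6a2 and Col18a1, and the folds lay between 3.16 for Col5a2 and 7.31 for Col18a1. Col6a1 was 6.55-fold lower (log2 difference -2.71, SE 0.18, limma adjusted p = 0.00228), Col5a3 4.83-fold lower (-2.27, SE 0.17, adjusted p = 0.00228), and Col4a1 and Col4a2 4.72-fold lower each (-2.24, SE 0.17 and 0.18, adjusted p = 0.00228 and 0.00264). Col3a1 was just inside the threshold at an adjusted p of 0.0497. For each of the 9 genes all papilloma arrays were above both tumor arrays.

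This comparison rests on few arrays. With the 7 matching columns, which leave 1 tumor array, the calls did not hold, while the log2 differences of the 9 genes were -2.61 to -1.45. From the scanner files 0 genes were called under each of 6 ways of processing.

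The differences were also taken between columns on a common slide. For the called genes the arrays of the compared groups did not overlap, so the direction on each slide was fixed in advance and only the sizes add information. The first arrays of the 4 groups were on slide 1, and slide 2 held the second arrays of papilloma skin, papilloma and tumor. The 10 genes called in papilloma versus papilloma skin were higher on both slides, by 1.60 to 4.65 on slide 1 and by 1.04 to 4.01 on slide 2 on the log2 scale. The 9 genes called in tumor versus papilloma had log2 differences of -3.70 to -1.79 on slide 1 and -2.36 to -1.15 on slide 2. Tumor versus tumor skin could be compared on slide 1 only, where the 7 called genes were higher by 0.86 to 2.68. Slide 1 holds both columns that do not match their files. Slides were read from the scanner files. The column papilloma 2 was closer to the file of papilloma 3 on slide 3 (rho 0.981) than to its own on slide 2 (0.934). The slide 2 differences may therefore not lie within a slide, and the slide term has the same limit. With slide as a term in the fit of the value table, limma called 8 of the 43 genes in papilloma versus papilloma skin. It called 2 in tumor versus tumor skin and 0 in tumor versus papilloma. In this fit no gene of the whole array was called in tumor versus papilloma. For the lesion comparisons the share of all genes called is not given, so these counts do not show whether the collagen genes stood out.

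Fewer of the collagen genes were called between the adjacent skins, but not all differences were small. Col1a1 (log2 difference -2.29) and Col3a1 (-1.84) were lower on both tumor skin arrays than on both papilloma skin arrays, without a call. The tumor differences of these genes are thus taken against a lower skin level than the papilloma differences. Of the 43 genes 16 were higher in tumor skin than in papilloma skin. Between tumor skin and papilloma skin 2 of 43 genes were called, against 0.181% of all genes called lower, both lower in tumor skin, Col5a3 with a log2 difference of -1.89 (limma adjusted p = 0.0135) and Col4a1 with -1.06 (adjusted p = 0.0477). Both were not well above background on tumor skin 2, the full-slope array of the lower group. Neither was called with the 7 matching columns (adjusted p = 0.255 and 0.261). Whether the lesion effect differed between stages was tested as the tumor effect minus the papilloma effect. limma called 0 of the 43 genes, with 15 at an unadjusted p under 0.05, against 0.0891% of all genes called. The share of all genes at that unadjusted p is not given. The values nearest to the threshold among the genes that reached the level were those of Col5a2 (-1.85, adjusted p = 0.0613), Col4a2 (-1.92, adjusted p = 0.0643) and Col6a1 (-1.87, adjusted p = 0.0694). The lesion comparisons of the stages have no array in common, but tumor versus papilloma shares its arrays with both.

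**Figure D3:**
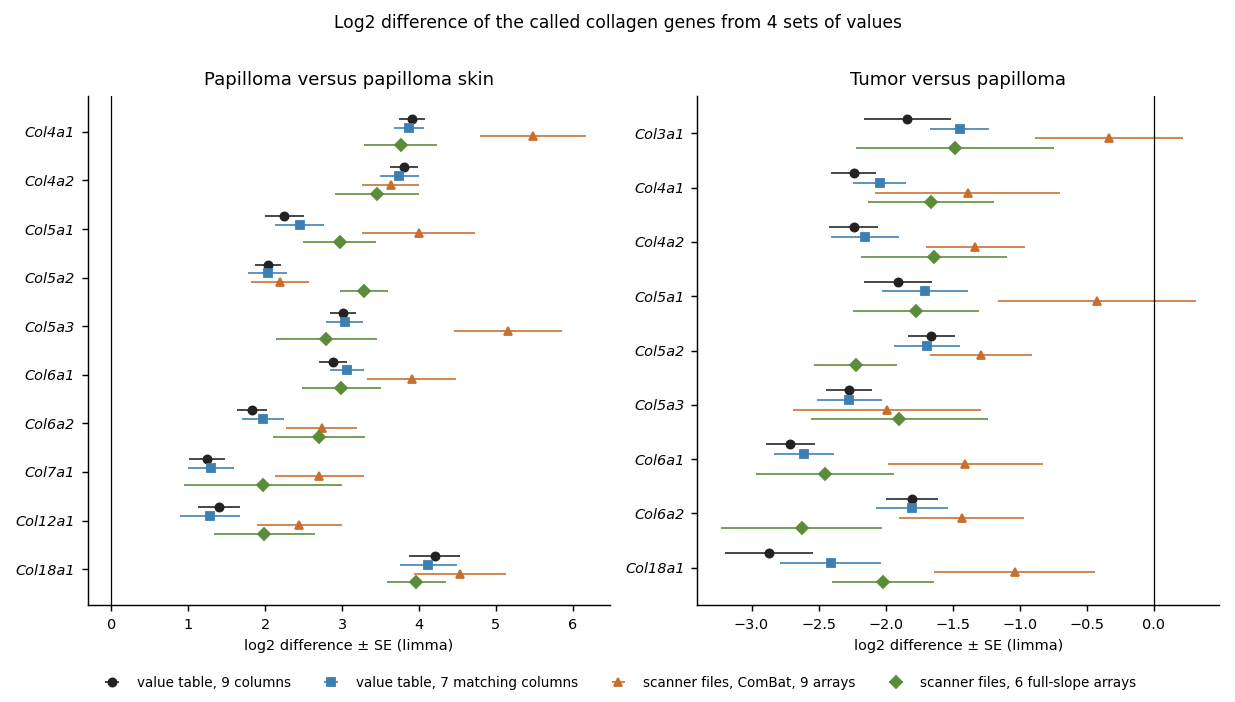
Log2 difference with its SE (limma) of the genes called in papilloma versus papilloma skin (left, 10 genes) and in tumor versus papilloma (right, 9 genes), from the value table with 9 columns, its 7 matching columns, the scanner files with ComBat on 9 arrays, and the scanner files of the 6 full-slope arrays. In the left panel the points of each gene lie right of 0 in all 4 sets, and in the right panel they lie left of 0, most with larger errors in both scanner sets.

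From the scanner files, with quantile normalization and ComBat, 13 genes were called in papilloma versus papilloma skin, of which 9 were among the 10 called from the value table, Col12a1 being the exception. The other 4 were Col1a1, Col1a2, Col3a1 and Col20a1. In tumor versus tumor skin 2 genes were called, Col4a2 and Col18a1, both among the 7. Counts under other processing are mostly given without the share of all genes called there, so they do not show whether the collagen genes stood out. With the 7 matching columns 12 genes were called in papilloma versus papilloma skin, 8 of them among the 10 with Col7a1 and Col12a1 lost, and 7 in tumor versus tumor skin, 4 of them among the 7 with Col5a1, Col6a1 and Col7a1 lost.

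Collagen chains need a set of enzymes and chaperones before they leave the cell and are cut and cross-linked outside it. Of 31 genes for these steps 8 were called higher in papilloma versus papilloma skin and 0 lower, 3 higher in tumor versus tumor skin and 0 lower, and 2 lower in tumor versus papilloma, beside 2.43%, 2.75% and 0.46% of all genes. The median log2 differences over the 31 genes were 0.50, 0.26 and -0.46.

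P4hb and P4ha1 encode subunits of the prolyl 4-hydroxylase that stabilizes the helix. P4ha1 stood at 7.12 and 7.20 in papilloma skin, 7.09 and 7.42 in tumor skin, 9.38, 9.37 and 9.09 in papillomas, and 9.31 and 9.39 in tumors. Both lesions lay above both skins and overlapped each other. P4ha1 rose by 2.12 in papilloma (limma adjusted p = 0.000302) and 2.10 in tumor (adjusted p = 0.000748) on the log2 scale, and P4hb, which is also protein disulfide isomerase in cells without collagen synthesis, by 2.46 (adjusted p = 0.000302) and 2.58 (adjusted p = 0.000644).

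Fkbp10, a collagen chaperone of the endoplasmic reticulum, was highest in papillomas at 10.81, 10.14 and 10.49, with 8.07 and 7.37 in papilloma skin, 6.34 and 6.88 in tumor skin, and 8.50 and 9.30 in tumors. It rose by 2.76 in papilloma (adjusted p = 0.00272) and 2.29 in tumor (adjusted p = 0.00868). Serpinh1, the collagen chaperone HSP47, rose by 1.86 (adjusted p = 0.00739) and Adamts2, which removes the N-terminal propeptide, by 1.58 (adjusted p = 0.00654) in papilloma. In tumor versus tumor skin their log2 differences were 1.00 (adjusted p = 0.0801) and 0.34 (adjusted p = 0.432). In tumor versus papilloma Adamts2 fell by 1.41 (adjusted p = 0.0391) and Bmp1, which removes the C-terminal propeptide, fell by 1.24 (adjusted p = 0.0273).

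Of 10 collagen receptors 2 were called higher in papilloma versus papilloma skin, 1 in tumor versus tumor skin, and 2 lower in tumor versus papilloma, beside the same 2.43%, 2.75% and 0.46% of all genes. The first were Itga11 (log2 difference 1.15, limma adjusted p = 0.0407) and Itga10 (1.11, adjusted p = 0.0133), integrin alpha subunits known from fibroblasts and cartilage, and the same pair was lower in tumor than in papilloma (-1.71, adjusted p = 0.0322, and -1.20, adjusted p = 0.0357). Itgb1, their shared beta subunit, was called in tumor versus tumor skin (1.02, adjusted p = 0.0223).

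Since the labels state neutrophils, markers of the other cells of skin were set beside the collagens. Of 12 pericyte and smooth muscle markers 10 were called higher in papilloma versus papilloma skin, 3 in tumor versus tumor skin, and 10 lower in tumor versus papilloma, beside 2.43%, 2.75% and 0.46% of all genes. For 5 the stage difference was called lower, beside 0.0891% of all genes called in either direction. Pdgfrb, a receptor taken here as a pericyte marker, stood at 6.75 and 6.49 in papilloma skin, 6.17 and 6.19 in tumor skin, 9.76, 9.72 and 10.08 in papillomas, and 7.85 and 7.87 in tumors. Pdgfrb rose by 3.23 on the log2 scale in papilloma (limma adjusted p = 9.2e-05) and Rgs5, another pericyte gene, by 3.99 (adjusted p = 0.000900).

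Of 12 endothelial markers 7 were called higher in papilloma versus papilloma skin, as were 3 in tumor versus tumor skin, among them Cdh5, the cadherin of endothelial junctions (log2 differences 2.57 and 2.39, adjusted p = 0.0135 and 0.0237). Of 14 fibroblast markers 3 were called higher in papilloma and 0 lower, Postn by 3.09, Sparc by 2.24 and Fbn1 by 1.41, and in tumor versus tumor skin 2 were called higher and Dcn lower. Of the 14 fibroblast markers 7 were above 0 in papilloma, with a median log2 difference of 0.38 over the list. Pdgfra, Dcn and Lum had log2 differences of -0.41, -0.58 and -0.12 in papilloma, the lowest value of the list was -1.46, and none of these was called. Of 18 keratinocyte markers 3 were called higher in papilloma and 4 in tumor, with Krt6b at 4.08 and 5.53 the most. Beside these counts stand 2.43% of all genes called higher in the papilloma comparison. In the tumor comparison 2.75% of all genes were called higher and 1.61% lower. In tumor versus papilloma 0 of 12 endothelial, 1 of 14 fibroblast and 0 of 18 keratinocyte markers were called lower, beside 0.46% of all genes. The median log2 differences over these lists were -1.30, -1.50 and 0.24.

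The summed level of the 12 pericyte and smooth muscle markers, on the log2 scale, was 12.32 to 12.66 in papilloma skin, 12.54 to 12.75 in tumor skin, 14.18 to 14.35 in papillomas and 12.43 to 12.44 in tumors. That of the 12 endothelial markers was 11.11 to 11.93, 10.85 to 11.20, 12.97 to 13.51 and 11.36 to 12.25 in the same order, and that of the 14 fibroblast markers 14.13 to 15.22, 13.11 to 13.81, 14.37 to 15.10 and 12.76 to 13.52. The 18 keratinocyte markers summed to 12.69 to 13.45, 12.67 to 13.86, 13.76 to 14.88 and 13.92 to 15.65. For comparison the summed level of the 43 collagen genes was 14.01 to 14.39, 13.34 in both tumor skin arrays, 15.80 to 16.09 and 13.53 to 14.23. The pericyte and endothelial lists, like the collagens, had their papilloma arrays above all others, whereas the sums of the fibroblast and keratinocyte lists overlapped between groups. By the median over the list the fibroblast markers, too, had their papilloma arrays above all others. No marker of these lists was below background on every full-slope array, and the part of these cells in the collagen values was not tested.

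Some of the neutrophil markers were lower in the lesions. The 12 markers summed to 19.96 to 19.97 in papilloma skin, 20.13 to 20.18 in tumor skin, 19.65 to 19.66 in papillomas and 19.81 to 19.86 in tumors. Of these 4 were called lower in papilloma versus papilloma skin (Camp, Ngp, Ltf and Mmp8) and 5 lower in tumor versus tumor skin (the same 4 and Ly6g), beside 1.17% and 1.61% of all genes called lower. The others were not called. In the papilloma comparison Itgam, with a log2 difference of 0.25, was the 1 marker above 0, and Cxcr2 (-0.004), S100a9 (-0.04) and Csf3r (-0.09) barely differed. In the tumor comparison the 1 marker above 0 was Mmp9 at 0.49. Ly6g, which encodes an antigen bound by Gr-1 antibodies, stood at 10.27 and 10.99 in papilloma skin, 12.65 and 12.22 in tumor skin, 9.30, 9.70 and 9.66 in papillomas, and 10.74 and 9.95 in tumors, and was well above background on all 9 arrays. In these bulk samples fewer cells of a type and less RNA per cell cannot be told apart. Of 9 macrophage markers 1, Emr1, which encodes F4/80, was called against the adjacent skin. Its log2 difference was -3.01 for papilloma and -2.10 for tumor. Emr1 was also called lower in tumor skin than in papilloma skin (-1.05, limma adjusted p = 0.0403). Of the 9 markers 5 were above 0 in the papilloma comparison and 2 in the tumor comparison. The median log2 differences over the list were 0.40 and -0.33.

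**Figure D4:**
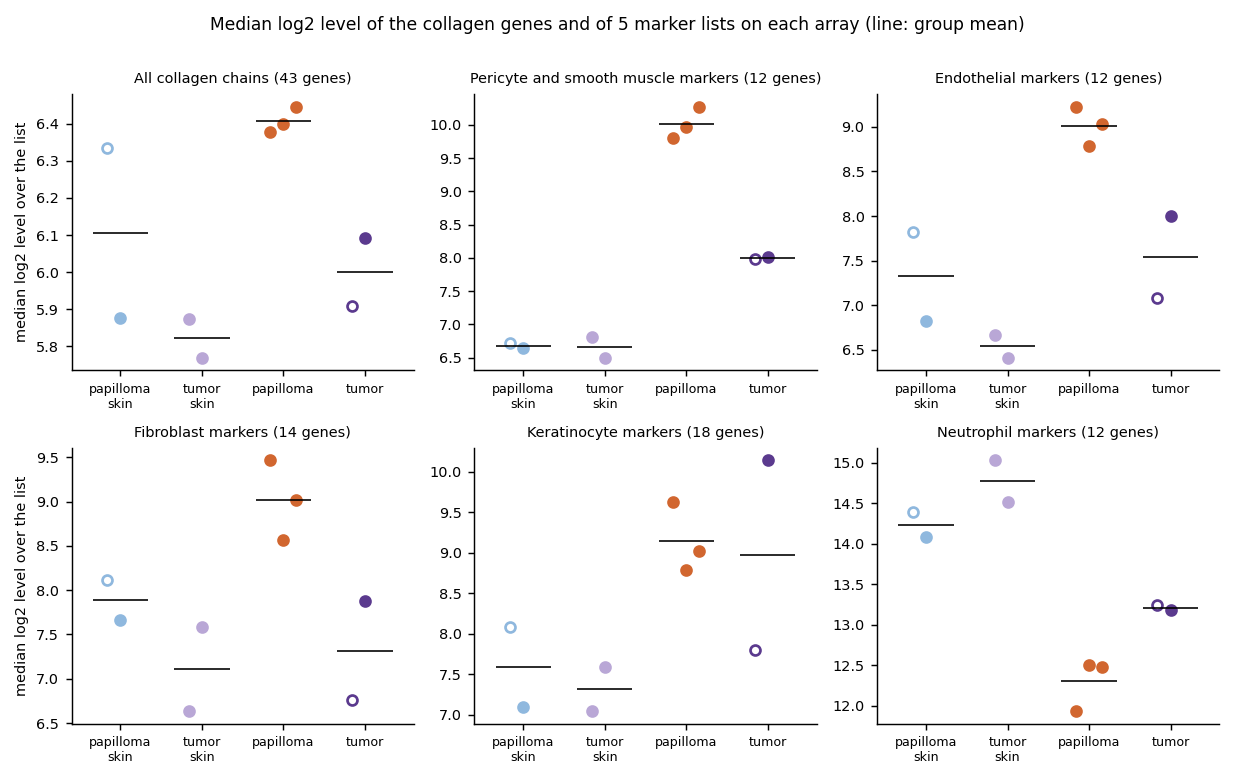
Median log2 level over the 43 collagen genes and over 5 marker lists on each of the 9 arrays, by group, with a line at the group mean and open points for the columns papilloma skin 1 and tumor 1. Axes differ between panels and do not start at 0. Papilloma arrays are highest for the collagen, pericyte, endothelial and fibroblast lists and lowest for the neutrophil list.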

How the data were processed

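Gene expression was measured on 9 one-color Agilent mouse arrays in 4 groups on 3 slides. The authors deposited the fluorescence intensity of each spot, background-subtracted by Feature Extraction 10.7.3.1, and a log2 value for each of 55681 probes on each array. The methods name quantile normalization with limma, and ComBat to correct for the chip, but not which of these steps the log2 values went through. If it holds ComBat with groups as covariates, its errors are too small.

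Probes were named by the array's gene name. The median over probes was tested with limma 3.58.1 on 34797 genes, with 5 residual degrees of freedom. The 3 limits for a call follow the methods. The number of arrays limits the precision. Alternatives used the 7 matching columns, the scanner intensities (quantile normalization, 75th percentile scaling, or normexp with offset 50, and a ComBat written here), the slide or replicate number as a term, other probe summaries and filters, and leaving out each array. The scripts were tested on simulated data.

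Named are all genes called in a lesion or stage comparison and 11 chains named whatever their values, with other genes by range, and up to 5 called genes per list. Values named outside this rule were chosen after they were seen: those of Col8a1, Col9a1, Col14a1, Col15a1, Col16a1, Col20a1 and Col27a1, and of the marker genes. The genes and lists were chosen with earlier results of these data known. Exons and UTRs of probes were not assigned, since no mm9 annotation was used here. Calculations were run in R 4.3.3 (data.table, version 1.17.8), and sequences and figures were made in Python 3.11.15 with matplotlib 3.10.9, pandas 2.3.3 and numpy 2.4.6.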

Additional observations from a re-analysis of the deposited data

Results flagged for a closer look

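Col8a1, a short chain collagen known from the subendothelium of vessels and the cornea, differed between the stages in the test of the difference itself. Its log2 level was 5.07 and 5.01 in papilloma skin, 5.46 and 5.44 in tumor skin, 6.85, 6.84 and 6.96 in papillomas, and 5.44 and 5.48 in tumors. The papilloma effect was 1.84 and the tumor effect 0.01, and the tumor effect minus the papilloma effect was -1.83 (SE 0.17, limma adjusted p = 0.0210). The gene was not counted as called, since its mean log2 level of 5.84 is under 6, and it was well above background on 3 of the 6 full-slope arrays, the papilloma arrays. Its tumor effect is thus a difference between groups that were not well above background on their full-slope array, and the stage difference carries no measured tumor effect. With the 7 matching columns the difference was -1.84 with an adjusted p of 0.346.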

How the results depend on the processing

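The counts of called genes were 10 in papilloma versus papilloma skin, 7 in tumor versus tumor skin, 9 in tumor versus papilloma, 2 between the skins and 0 for the stage difference. With no level minimum, and with the value table scaled to the 75th percentile, the stage difference had 1 call. From the scanner files all counts were 0 with 75th percentile scaling, with quantile normalization without slide correction, with slide as a term and with the 6 full-slope arrays, where limma gave 18 genes in papilloma versus papilloma skin, with 14 in tumor versus papilloma, an unadjusted p under 0.05. The 75th percentile scaling gave a median of -0.41 over all genes and -0.32 over the collagen genes in papilloma versus papilloma skin. With ComBat tumor versus tumor skin had 2 calls and tumor versus papilloma and the skins 0, and with normexp and ComBat the latter also had 0. With slide as a term in the value table the counts were 2 for tumor versus tumor skin and 0 for tumor versus papilloma and the skins. The 7 matching columns gave 0 for the latter comparisons, and the filter on dim probes 1 for the skins. The cause was not tested. In the scanner runs on 9 arrays with all counts at 0, no gene of the whole array was called in any comparison. Nor was any called in tumor versus papilloma and between the skins with slide as a term in the value table. These zeros are thus not particular to the collagen genes. Shares of all genes called are not given for the other runs, nor shares at an unadjusted p under 0.05 for any. The counts in the other runs therefore do not show whether the collagen genes stood out.

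With the replicate number as a block, tumor versus tumor skin had 3 calls, tumor versus papilloma 2 and the skins 0. Deviations of same-numbered arrays correlated from -0.88 to 0.32. With 2 or 3 arrays per group and 2 columns that do not match their files, these correlations cannot decide whether the numbers pair the arrays. Exchanging the numbers of the tumor skin arrays, an alternative added after the data were seen, gave 0 calls between the skins.

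Leaving out each array gave 8 to 13, 3 to 8, 4 to 9, 0 to 1 and 0 to 0 calls, in the order above. The count in tumor versus tumor skin was 3 without tumor skin 1 or tumor 2, and that in tumor versus papilloma was 4 without tumor 1 and 5 without papilloma 3. Between the skins it was 0 without any 1 of the 4 skin arrays and 1 without any 1 of the lesion arrays. The difference of Col4a1 between the skins reversed to 0.030 with scanner files and ComBat and to 0.070 with slide as a term on the scanner files. The other called differences kept their direction in every alternative run, but not their size: in tumor versus papilloma Col3a1 came down to -0.094 and Col5a1 to -0.38, and Col5a3 between the skins to -0.26, all from the scanner files.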
